A study of Rattus norvegicus with 18 samples.

Results

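Renal parenchyma of rats whose left ureter had been tied off for 7 days was compared with that of rats whose ureter had been tied off for 1 day. Its groups are set by the labels, as the 5 libraries labelled 7 days against the 5 labelled 1 day, which are 10 of the 18 libraries of the series. Every rat of both groups carried the ligation, placed with silk suture through a midline opening under ketamine, so the 1-day kidneys are the reference and are themselves obstructed. A sham group is part of the described design, but all 18 libraries of the series are labelled as ligated, so no sham library could be compared. A further 5 libraries of 3 days served to place levels, and these and 3 libraries labelled 14 days entered alternative fits only. Each library is poly(A)-selected RNA, and the labels give all of them the same genotype entry, which names the obstruction model, and the same batch entry. Strain, age and sex are not given in the labels, and no label ties a library to a separate animal, so the p-values below measure the spread between these libraries.

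Ligation of a ureter raises the pressure in the tubules of that kidney and is a standard model of obstructive nephropathy. Stretched and injured tubular cells release cytokines, leukocytes enter the interstitium, and fibroblasts multiply, turn into contractile myofibroblasts and lay down collagen. Surviving tubular cells lose part of their transport and oxidative programme and may enter the cell cycle.

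The 10 libraries held 5488540 to 10954852 counts over genes, and between 16634 and 18121 genes had a count. Mitochondrially encoded genes took 9.85% ± 2.24 of the counts at 1 day and 8.04% ± 0.91 at 7 days (SD, n = 5). In a principal component analysis of the 10 libraries the leading axis (48.5%) divided the 2 groups, and the next (20.3%) set replicate 5 of 1 day apart from the other 9. That library stood out for genes of other tissues: its summed FPKM (reads scaled for transcript length and library size) over a urothelial marker list was 405 against 4.54 to 15.0 in the other 4 libraries of 1 day and 7.81 to 10.2 at 7 days. Its sum over adipocyte markers was 284, against 22.6 to 33.7 in the other 4. All results were refitted without it. Many of those given here that then moved by more than 1.5 times are printed both ways, but a value printed once was not always stable to it. Markers of the kidney itself, Lrp2 of the proximal tubule, Umod of the thick ascending limb, Aqp2 of the collecting duct and Nphs1 of podocytes, were present in all 10 libraries.

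After 7 days of obstruction the kidney carried more mRNA of collagens and elastic fibre genes, of the mitotic machinery, of MHC class II presentation and of T cells and macrophages than after 1 day. It carried less mRNA of the ATF4 amino acid stress response and of part of a list of NRF2 and glutathione genes. Single genes such as the small heat shock gene Hspb1 and the tubular injury marker Havcr1 were lower too. Of 13698 genes that passed the count filter, 4772 differed (edgeR's quasi-likelihood test, Benjamini-Hochberg adjusted p under 0.05; here "called"), which is 34.8%. Of these, 2178 were higher at 7 days (15.9%) and 2594 were lower (18.9%). The split depends on the scaling: 45.6% of calls were higher with TMM factors, 55.8% with upper-quartile factors, and 62.9% or 63.1% on log2 FPKM with a pseudocount of 1 or 0.1. The median log2 difference of all tested genes was -0.02 with TMM factors and 0.08 or 0.09 on those FPKM scales.

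Large differences were mostly increases. A difference of at least 2-fold was called for 1003 genes that were higher and 501 that were lower, and of at least 4-fold for 200 and 56. In 3164 genes (23.1%) the 5 libraries of 7 days did not overlap the 5 of 1 day in normalised counts, 1433 of them higher (10.5%) and 1731 lower (12.6%). The plot of all tested genes marks those named most often below.

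**Figure D1:**
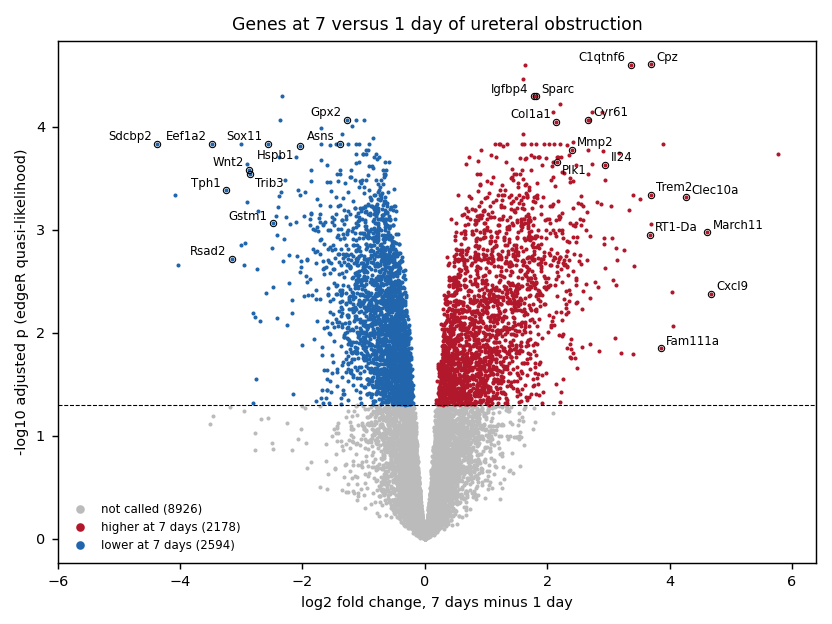
Each point is 1 of the 13698 tested genes, with the log2 fold change of 7 days over 1 day on the x axis and the -log10 adjusted p of edgeR's quasi-likelihood test on the y axis. The dashed line is the threshold of 0.05; red points (2178) are higher and blue points (2594) lower at 7 days, and the points beyond 4-fold lie more on the right (200 genes) than on the left (56).

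The gene that separated the groups with the smallest p was Cpz, a secreted carboxypeptidase that acts on Wnt proteins. Its FPKM was 3.24, 2.37, 3.41, 1.68 and 2.34 in replicates 1 to 5 of 1 day and 33.3, 42.9, 26.1, 41.0 and 42.2 in those of 7 days, a log2 difference of 3.70 ± 0.21 (SE) with an edgeR adjusted p of 2.49e-05. C1qtnf6, a secreted protein of the C1q and TNF related family, had 0.964, 0.806, 1.14, 0.983 and 0.691 FPKM at 1 day and 7.54, 10.9, 10.8, 8.66 and 12.8 at 7 days. For both genes the lowest 7-day library was several times the highest 1-day library. Ranked by fold instead of p, the largest decrease among the genes named here was that of Sdcbp2, a PDZ-domain adaptor also called syntenin-2. It had 24.5, 7.38, 13.4, 14.8 and 12.2 FPKM at 1 day and 1.37, 0.619, 0.316, 0.846 and 0.600 at 7 days. It was 20.7-fold lower at 7 days (log2 difference -4.37 ± 0.39, edgeR adjusted p = 0.000146). Eef1a2, a translation elongation factor best known from neurons and muscle, was 11.2-fold lower, with 7.57 to 19.7 FPKM at 1 day and 0.891 to 2.11 at 7 days. Lamb3, a laminin chain of epithelial basement membranes, was 7.54-fold lower and Crabp2, a retinoic acid binding protein, 5.57-fold. The groups stood clear of each other for these 4 genes as well. The rule for naming the largest changes took only called genes without overlap, so that lack of overlap is no separate result.

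The size of some of the largest increases depended on 1 library. March11, a membrane-bound ubiquitin ligase, was listed at 0.905, 0, 0.462, 0.231 and 0 FPKM at 1 day and at 17.4, 6.82, 6.14, 3.97 and 11.0 at 7 days, and its log2 difference of 4.61 ± 0.70 became 5.41 without replicate 1 of 1 day. Fam111a, a nuclear protease, had 3.83, 5.38, 62.0, 2.72 and 2.87 FPKM at 7 days against 0.704 to 1.83 at 1 day. Replicate 3 of 7 days thus stood far above the other 4, and without it the log2 difference fell from 3.85 to 1.74.

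The matrix genes rose together. Of 19 collagen genes tested, 14 were higher and 0 lower, with a median log2 difference of 1.18 against -0.02 over all tested genes, and 12 of them had no overlap between the groups. Col1a1, which encodes the main chain of fibrillar type I collagen, had 25.2, 19.7, 13.7, 20.6 and 15.9 FPKM in the 5 libraries of 1 day and 78.7, 97.7, 81.1, 82.4 and 113 in those of 7 days. The lowest library of 7 days, replicate 1, was far above the highest of 1 day, also replicate 1, and the log2 difference was 2.15 ± 0.18 (edgeR adjusted p = 8.92e-05). Col3a1, the partner collagen of soft tissue, was 3.60-fold higher, Col6a2 of the pericellular type VI network 2.93-fold, and Col4a1 of basement membranes 1.87-fold, all without overlap. Col1a2, the second chain of type I collagen, and Col15a1 were listed at 0 in all 10 libraries and could not be compared. DESeq2 also called 0 collagens lower, and 1 had an unadjusted p under 0.05 in that direction. For the elastic fibre, mitosis, cholesterol and oxidative phosphorylation lists below, each given with 0 calls in 1 direction by edgeR, DESeq2 also called 0 there and 0 members had an unadjusted p under 0.05.

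Of 21 genes for elastic fibres, proteoglycans and matricellular proteins, 15 were higher and 0 lower, with a median log2 difference of 1.38. Sparc, a collagen-binding matricellular protein, was present at 182, 139, 139, 142 and 193 FPKM at 1 day and 502, 607, 545, 649.5 and 696 at 7 days. Cyr61, a secreted YAP and TEAD target also called Ccn1, rose 6.38-fold, from 26.1, 31.6, 16.5, 32.2 and 25.4 FPKM to 190, 213, 186, 119 and 191. In both genes all 5 libraries of 7 days exceeded all 5 of 1 day, with replicate 4 of 7 days the lowest for Cyr61. The elastic fibre genes Fbn1 and Fbln5 were 3.63-fold and 4.74-fold higher, with edgeR adjusted p of 0.000198 and 0.000272. Fn1, which encodes fibronectin, did not follow them: its FPKM was 88.2 ± 18.4 at 1 day and 91.6 ± 27.9 at 7 days (mean ± SD, n = 5), the groups overlapped, and the log2 difference was -0.04 ± 0.21 (edgeR adjusted p = 0.9).

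Genes of matrix crosslinking and proteolysis were more often higher: 11 of 30 were higher (36.7%, against 15.9% of all tested genes) and 4 lower (13.3%, against 18.9%). Lox, a lysyl oxidase that crosslinks collagen and elastin, had 1.78, 1.38, 1.17, 1.39 and 1.44 FPKM at 1 day and 5.94, 9.15, 3.75, 7.46 and 8.15 at 7 days, and Adamts2, which trims procollagen, was 6.35-fold higher. The gelatinase Mmp2 rose 5.28-fold, with 4.21 to 8.04 FPKM at 1 day and 22.9 to 51.6 at 7 days. Plau, the urokinase activator of plasminogen, was instead lower, with 517 to 651 FPKM at 1 day and 281 to 483 at 7 days (log2 difference -0.85 ± 0.15, edgeR adjusted p = 0.0021). None of these 4 genes overlapped between the groups. In a fit on all 18 libraries Plau was not called (edgeR adjusted p = 0.331), with a log2 difference of -0.82. The spread in that fit, here and below, also includes the spread among the 3 libraries labelled 14 days.

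Fibroblast and smooth muscle markers rose with the matrix: 12 of 19 were higher, with a median log2 difference of 1.04. The transcription factor Runx1 was called lower, and that call was lost without replicate 1 or 3 of 1 day, without replicate 3 or 4 of 7 days and on the FPKM scales. In bulk tissue more cells of a type and more RNA per cell cannot be told apart, here and in the cell-type lists below. Pdgfrb, the receptor that marks pericytes and fibroblasts, was 2.64-fold higher. Acta2, the smooth muscle actin of myofibroblasts, had 52.0, 40.8, 26.3, 31.0 and 34.6 FPKM at 1 day and 111, 143, 108, 83.4 and 129.9 at 7 days, and its companion Tagln was 4.19-fold higher. Ltbp2, a matrix protein that resembles the latent TGF-beta binding proteins, rose 4.53-fold. Replicate 4 of 7 days was the lowest of its group for Acta2 and Tagln and still lay above every 1-day library.

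Growth factor genes changed member by member. Among 24 TGF-beta and BMP genes 6 were higher (25%, against 15.9% of all tested genes) and 4 lower (16.7%, against 18.9%). The median was 0.24, and 10 were higher once replicate 5 of 1 day was left out. Tgfb2, the isoform with the largest increase, had 1.92, 3.82, 1.45, 2.75 and 2.06 FPKM at 1 day and 18.7, 14.1, 20.4, 6.74 and 15.9 at 7 days (log2 difference 2.58 ± 0.34, edgeR adjusted p = 0.000584). Tgfb1, the isoform best known from fibrosis, rose 1.92-fold, with 17.3 to 39.5 FPKM at 1 day and 38.5 to 68.5 at 7 days, and the groups overlapped. The receptor Tgfbr2 was 2.03-fold lower, also with overlap. Of 16 Wnt genes tested 9 were higher and 1 lower (2 without replicate 2 or 4 of 1 day), and their median of 0.79 became 1.44 without replicate 5 of 1 day and 1.27 with limma's voom and sample weights. Sfrp1, a secreted Wnt antagonist, rose 4.27-fold, whereas the ligand Wnt2 had 6.90, 6.94, 6.87, 5.21 and 4.26 FPKM at 1 day and 0.785, 1.64, 0.672, 0.899 and 0.383 at 7 days, 7.30-fold lower without overlap. In the IGF axis 5 of 13 genes were higher (38.5%, against 15.9% of all tested genes) and 3 lower (23.1%, against 18.9%). The binding protein Igfbp4 was 3.45-fold higher (edgeR adjusted p = 5.08e-05) and the ligand Igf1 5.25-fold, with 0.158 to 1.86 FPKM at 1 day and 2.56 to 9.41 at 7 days.

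**Figure D2:**
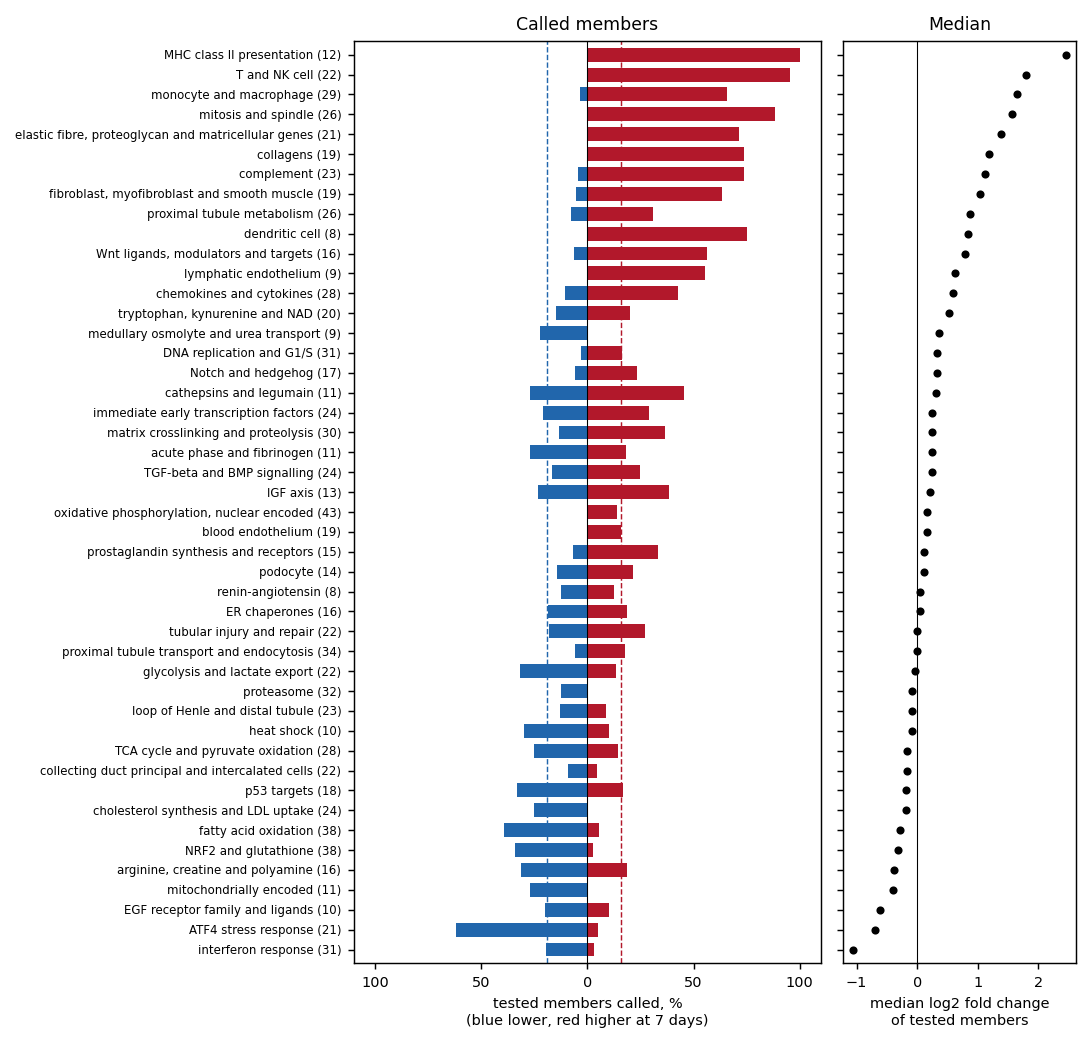
For each gene list with at least 8 tested members (number in brackets), the left panel gives the percent of tested members called lower (blue, to the left) and higher (red, to the right) at 7 days, and the right panel the median log2 fold change. The dashed lines mark the share of all tested genes called lower (18.9%) and higher (15.9%); MHC class II presentation, T and NK cell, mitosis and matrix lists reach far past the red line, and the ATF4 list past the blue line.

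Genes of mitosis were higher at 7 days almost without exception. Of 26 tested, 23 were called higher, 0 lower, and 18 had no overlap, with a median log2 difference of 1.57. Plk1, a kinase of mitotic entry and spindle assembly, had 2.08, 1.37, 0.898, 1.38 and 1.27 FPKM at 1 day and 8.73, 5.79, 7.08, 6.48 and 5.23 at 7 days. The log2 difference was 2.15 ± 0.23 (edgeR adjusted p = 0.000218), and the lowest 7-day library was more than double the highest 1-day library. Mki67, the proliferation antigen Ki-67, rose 3.72-fold, from 2.29, 1.50, 0.813, 1.68 and 1.05 FPKM to 7.06, 6.94, 5.81, 4.61 and 4.65. Replicate 1 of 1 day held the highest value of its group for both genes, and neither gene overlapped. The cyclin Ccnb1 was 3.27-fold higher and the spindle checkpoint kinase Bub1 3.33-fold.

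Genes of DNA replication and the G1/S transition moved less. Of 31 tested, 5 were higher (16.1%) and 1 lower, the latter a call that held on leaving out replicate 2 of 7 days and was lost on leaving out any other library. The share higher was close to the 15.9% of all tested genes. The median was 0.33, and 8 members were higher with upper-quartile factors. Cdc45, a helicase component, was 1.96-fold higher and Tk1, thymidine kinase, 2.08-fold, both without overlap. The difference between the 2 lists was not tested.

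The upstream sequences of the mitosis genes were examined because promoters of this class are known for a cell-cycle homology region and CCAAT boxes. In the 250 bases before the start of transcription (RefSeq promoters, GRCr8), the letters TTTGAA on either strand were found in 9 of 22 mitosis genes with a promoter in the table (40.9%) and in 16.0% of 27457 promoters. CCAAT on either strand was found in 16 of 22 (72.7%) and in 34.3% of all. A match describes letters and is no evidence of a bound site. The last 100 bases before the start are shown for 4 genes chosen after their values were seen, for having both motifs; each is written in the direction of transcription, and capitals mark TTTGAA or CCAAT, which do not overlap here, or their reverse complements. They are Cdk1 (chr20:19265193-19265292, plus strand), Cdc20 (chr5:137255800-137255899, minus strand), Prc1 (chr1:143659381-143659480, plus strand) and Top2a (chr10:84473094-84473193, minus strand).
Cdk1: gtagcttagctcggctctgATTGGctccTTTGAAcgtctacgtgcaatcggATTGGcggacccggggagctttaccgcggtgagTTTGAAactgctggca
Cdc20: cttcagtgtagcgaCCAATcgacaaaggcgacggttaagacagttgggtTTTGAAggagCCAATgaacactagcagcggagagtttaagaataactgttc
Prc1: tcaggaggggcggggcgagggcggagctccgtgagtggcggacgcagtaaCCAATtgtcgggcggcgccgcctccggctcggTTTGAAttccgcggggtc
Top2a: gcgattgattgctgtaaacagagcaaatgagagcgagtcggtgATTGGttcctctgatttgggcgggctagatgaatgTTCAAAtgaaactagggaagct
In the counts, Cdk1, the kinase of mitotic entry, was 3.73-fold higher at 7 days. Top2a, which untangles sister chromatids, was 4.01-fold higher, Prc1 of the spindle midzone 3.24-fold and Cdc20, an activator of the anaphase-promoting complex, 2.36-fold. None of these 4 overlapped between the groups.

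All 12 MHC class II presentation genes tested were called higher at 7 days, 9 of them without overlap, with a median log2 difference of 2.45. RT1-Da, the alpha chain of the rat class II molecule RT1.D, had 10.6, 11.3, 12.2, 14.2 and 9.26 FPKM at 1 day and 34.5, 256, 68.8, 339 and 94.6 at 7 days. All 5 libraries of 7 days exceeded those of 1 day, with replicate 1 the lowest and replicates 2 and 4 far above the rest. Ciita, the transactivator that controls class II genes, was likewise highest in replicates 2 and 4, with 1.92, 12.7, 3.09, 12.9 and 4.30 FPKM at 7 days against 0.372 to 0.991 at 1 day (log2 difference 3.14 ± 0.55, edgeR adjusted p = 0.00196). RT1-Ba rose 8.32-fold and Cd74, the invariant chain, 5.12-fold. Class II genes are close relatives, and how reads shared between them were counted is not given in the sources used here.

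Class II promoters are known for a shared X and Y box arrangement that carries the enhanceosome to which CIITA is recruited, and the sequences are shown because the whole list moved together. The Y box letters TGATTGG, which contain a CCAAT box on the other strand, were found on either strand in 7 of 10 members with a promoter in the RefSeq table (70.0%) and in 6.7% of 27457 promoters. The X box core AACNGATG was found in 4 of 10 (40.0%) and in 2.1% of all. Bases 140 to 21 before the start are shown in the direction of transcription, with both motifs in capitals, for RT1-Da (chr20:4515275-4515394, plus), RT1-Db1 (chr20:4560183-4560302, minus), RT1-DOb (chr20:4627544-4627663, minus), RT1-Ba (chr20:4576917-4577036, plus) and RT1-DMa (chr20:4712356-4712475, minus), all GRCr8.
RT1-Da: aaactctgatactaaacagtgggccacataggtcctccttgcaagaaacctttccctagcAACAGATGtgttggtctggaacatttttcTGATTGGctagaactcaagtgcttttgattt
RT1-Db1: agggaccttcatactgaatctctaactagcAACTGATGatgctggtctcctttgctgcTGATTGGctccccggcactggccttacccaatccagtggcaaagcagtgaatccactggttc
RT1-DOb: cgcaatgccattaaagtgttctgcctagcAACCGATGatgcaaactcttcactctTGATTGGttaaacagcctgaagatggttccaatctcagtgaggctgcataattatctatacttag
RT1-Ba: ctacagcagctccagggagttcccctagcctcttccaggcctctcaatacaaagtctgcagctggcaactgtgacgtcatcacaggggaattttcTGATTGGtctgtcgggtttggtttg
RT1-DMa: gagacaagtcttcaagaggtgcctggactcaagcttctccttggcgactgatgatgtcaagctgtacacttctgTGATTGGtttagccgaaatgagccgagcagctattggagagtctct
RT1-Db1, which holds both motifs, was 9.56-fold higher at 7 days. RT1-DOb also holds both and rose 3.30-fold, with 0.553 to 1.49 FPKM at 1 day and 1.24 to 6.62 at 7 days, which overlap. Its edgeR adjusted p of 0.0226 became 0.0569 without replicate 3 of 1 day and 0.0512 without replicate 2 of 7 days. RT1-DMa, an exchange factor for class II peptides with the Y box letters alone, was 2.77-fold higher. RT1-DOb, RT1-DMa and Cd74 were named after their values were seen.

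T cell and natural killer genes were higher at 7 days in 21 of 22 tested cases, 15 of them without overlap, with a median log2 difference of 1.80. Cd3e, a chain of the T cell receptor complex, had 1.16, 0.910, 1.09, 0.808 and 0.693 FPKM at 1 day and 2.85, 4.01, 4.90, 13.0 and 2.63 at 7 days, and its log2 difference was 2.43 ± 0.45 (edgeR adjusted p = 0.00254). Replicate 4 of 7 days was highest by a wide margin, and the other 4 still exceeded all 1-day libraries. Cd4, carried by helper T cells and by rat macrophages, rose 5.33-fold, Cxcr3, a chemokine receptor of activated T cells, 5.53-fold, and Cd7 9.07-fold. Summed over the list, FPKM ran from 35.3 to 54.3 at 1 day and from 97.5 to 383 at 7 days. With a stricter filter on low counts fewer members could be tested, and 10 were called higher.

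Macrophage genes followed, with 19 of 29 higher, 14 without overlap, and 1 lower. Trem2, a lipid receptor of tissue macrophages, had 0.412, 1.77, 0.395, 0.315 and 0.928 FPKM at 1 day and 10.3, 11.3, 4.63, 14.8 and 11.3 at 7 days, a 12.9-fold increase (edgeR adjusted p = 0.00046). Clec10a, a lectin of dendritic cells and macrophages, rose 19.3-fold, from 0.663, 1.73, 1.52, 1.48 and 3.46 FPKM to 15.5, 31.5, 18.6, 82.8 and 39.4. The 5 libraries of 7 days stood above those of 1 day in both genes. Csf1r, the receptor for macrophage colony stimulating factor, rose 3.40-fold and C1qa 4.38-fold, while Cd68 rose 2.25-fold with overlap, replicate 5 of 1 day being highest in its group (adjusted p = 0.0546 in a fit on all 18 libraries). Gpnmb, a lysosomal glycoprotein, was the member called lower, with 57.7 to 105 FPKM at 1 day and 15.5 to 64.3 at 7 days. That call (edgeR adjusted p = 0.034) was lost without replicate 1 or 4 of 1 day or replicate 5 of 7 days, with adjusted p of 0.0881, 0.0703 and 0.0801, and in a fit on all 18 libraries, with 0.226.

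Complement genes were higher in 17 of 23 cases and lower in 1, with a median of 1.12, and 11 were higher without replicate 4 of 1 day or without replicate 5 of 7 days. C2, a protease of the classical pathway, had 2.70, 2.76, 3.33, 3.85 and 6.15 FPKM at 1 day and 20.6, 77.0, 16.7, 62.5 and 29.8 at 7 days. The member that was lower was Cd59, the membrane inhibitor of the terminal complex, with 163 to 266 FPKM at 1 day and 100.3 to 154 at 7 days (log2 difference -0.96 ± 0.14, edgeR adjusted p = 0.000994). Neither gene overlapped between the groups. In the B cell and plasma cell list 2 of 6 genes were higher (33.3%, against 15.9% of all tested genes) and 1 lower (16.7%, against 18.9%). The number higher was 1 without replicate 2, 4 or 5 of 7 days. Pou2af1, a B cell coactivator, was 3.46-fold higher. Fcer2, a low-affinity IgE receptor, was 4.48-fold lower. It had 4.36, 5.05, 7.41, 5.94 and 16.2 FPKM at 1 day and 1.94, 0.730, 1.51, 4.12 and 1.02 at 7 days. Neutrophil genes gave no such count: 3 were tested and 0 were called by edgeR (1, Csf3r, had an unadjusted p under 0.05 and was called higher by DESeq2), 1 was called higher without replicate 5 of 1 day or replicate 1 of 7 days, and the summed FPKM of the list was highest in replicate 5 of 1 day (53.2) and replicate 4 of 7 days (96.3).

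Chemokines and cytokines were more often higher: 12 of 28 were higher (42.9%, against 15.9% of all tested genes) and 3 lower (10.7%, against 18.9%). Il24, a cytokine of the IL-10 family, had 7.20, 2.95, 6.22, 7.70 and 3.03 FPKM at 1 day and 71.4, 33.7, 32.3, 39.2 and 47.8 at 7 days. Its relative Il19 rose 4.60-fold and Cxcl12, which holds leukocytes through CXCR4, 2.98-fold, and the monocyte chemokine Ccl6 5.73-fold. All 4 genes were without overlap. Cxcl9, a ligand of CXCR3, had 0.556, 0.114, 0.670, 0.365 and 1.50 FPKM at 1 day and 4.78, 17.8, 3.80, 66.2 and 5.43 at 7 days, and its log2 difference of 4.68 ± 0.95 was 3.41 without replicate 4 of 7 days. Cxcl11, another CXCR3 ligand, went the other way, with 41.3 to 89.6 FPKM at 1 day and 7.86 to 40.4 at 7 days, as did the alarmin Il33, 3.45-fold lower. Ccl2, the monocyte attractant, was 34.8 ± 9.06 FPKM at 1 day and 34.3 ± 15.1 at 7 days (mean ± SD, n = 5; edgeR adjusted p = 0.788).

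**Figure D3:**
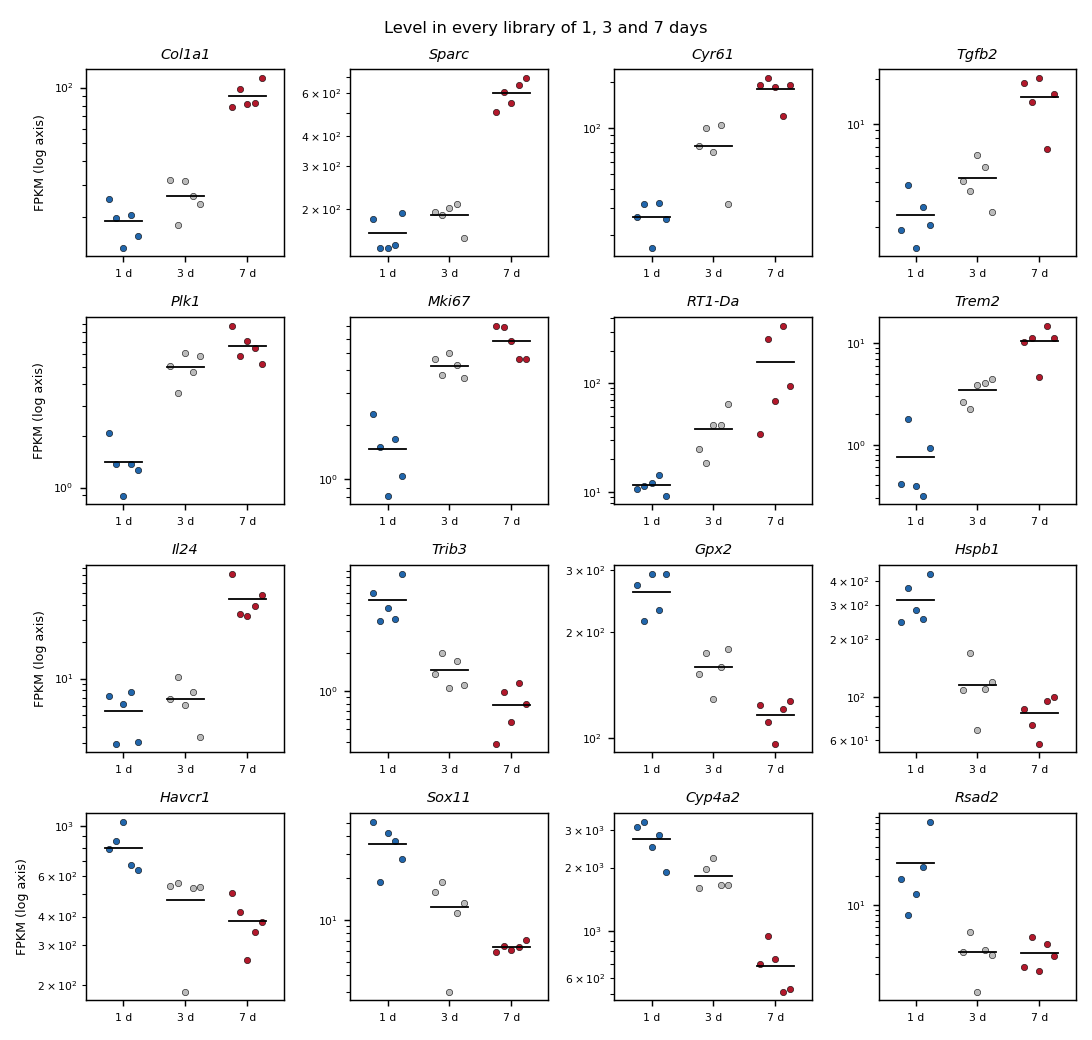
FPKM on a log axis in each of the 5 libraries of 1, 3 and 7 days for 16 genes named in the text, with a bar at the mean of each group. The 7-day libraries (red) lie clear of the 1-day libraries (blue) in every panel, above in the first 9 genes and below in the last 7.

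The ATF4 programme, by which cells answer amino acid shortage and endoplasmic reticulum stress, was lower at 7 days in 13 of 21 tested genes and higher in 1. The median log2 difference was -0.69, and 11 members were lower without overlap. Asns, asparagine synthetase, had 30.6, 32.0, 26.7, 20.5 and 30.1 FPKM at 1 day and 11.8, 11.7, 10.3, 13.5 and 10.3 at 7 days (log2 difference -1.39 ± 0.13, edgeR adjusted p = 0.000146). Trib3, a pseudokinase that feeds back on ATF4, had 5.97, 3.62, 4.53, 3.77 and 8.53 FPKM at 1 day and 0.385, 0.978, 0.576, 1.16 and 0.788 at 7 days, and Chac1, which degrades glutathione, was 4.59-fold lower. The groups stood apart in all 3 genes. The member called higher, Cebpb, had 38.5 to 84.2 FPKM at 1 day and 64.0 to 148 at 7 days with overlap. Its edgeR adjusted p of 0.0254 passed 0.05 on leaving out replicate 1, 2 or 4 of 1 day or replicate 4 or 5 of 7 days, with 0.0538 to 0.0618.

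ATF4 acts through composite amino acid response elements, so the promoters of this list were searched for the letters TGATGNAA on either strand. They were found in the 250 upstream bases of 4 of 21 members (19.0%; Chac1, Slc7a1 and Trib3, called lower, and Pycr1, not called) and of 3.3% of 27457 RefSeq promoters. The stretches that hold the match, in capitals and written in the direction of transcription, so that a match on the other strand appears as its reverse complement, are the last 80 bases before the start of Trib3 (chr3:161275534-161275613, minus) and of Slc7a1 (chr12:11664408-11664487, plus) and bases 200 to 121 before that of Chac1 (chr3:126795931-126796010, plus), all GRCr8.
Trib3: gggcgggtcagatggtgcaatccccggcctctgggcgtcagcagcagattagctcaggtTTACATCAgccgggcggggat
Slc7a1: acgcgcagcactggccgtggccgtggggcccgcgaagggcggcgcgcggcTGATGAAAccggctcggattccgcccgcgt
Chac1: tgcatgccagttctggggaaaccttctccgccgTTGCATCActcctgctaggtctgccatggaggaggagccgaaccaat
Slc7a1, a cationic amino acid transporter named after its values were seen, was 1.82-fold lower at 7 days, with 3.17 to 6.68 FPKM at 1 day and 2.18 to 3.23 at 7 days. Its edgeR adjusted p of 0.006 was 0.0609 in a fit on all 18 libraries.

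Genes linked to NRF2, the transcription factor of the antioxidant response, or to glutathione were lower in 13 of 38 cases, and 24 were not called. The share lower was 34.2%, against 18.9% of all tested genes, and the median was -0.31. The number higher was 1 (3 without replicate 5 of 1 day, 2 without replicate 2). Gpx2, a glutathione peroxidase of epithelia, had 272, 216, 293, 232 and 294 FPKM at 1 day and 125, 111, 96.5, 121 and 128 at 7 days, and its log2 difference of -1.27 ± 0.10 had an edgeR adjusted p of 8.54e-05. Srxn1, which repairs oxidised peroxiredoxins, was 2.89-fold lower and Hmox1, heme oxygenase 1, 2.18-fold. Gstm1, a glutathione transferase with close relatives that may share reads, had 186, 319, 216, 493 and 433 FPKM at 1 day and 43.3, 69.0, 37.0, 52.7 and 113 at 7 days. Akr1b8, an aldo-keto reductase, was 6.45-fold lower. None of these 5 genes overlapped between the groups. The member called higher was Osgin1, with 6.08 to 10.6 FPKM at 1 day and 12.3 to 24.9 at 7 days, and its edgeR adjusted p of 0.0269 became 0.0519 without replicate 4 of 1 day, 0.0572 without replicate 5 of 7 days and 0.496 in a fit on all 18 libraries. The letters TGACNNNGC of an antioxidant response element, on either strand, were found in the 250 upstream bases of 9 of 33 members (27.3%) and of 10.2% of all promoters. Of these 9 members, Gpx2 and Me1 were called lower and the other 7 were not called.

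Heat shock and acute phase genes were mixed. Hspb1, a small heat shock protein of injured epithelium, had 243, 366, 283, 254 and 434 FPKM at 1 day and 86.4, 72.1, 57.5, 95.0 and 101 at 7 days, 4.14-fold lower without overlap, while the inducible chaperone Hspa1b was 3.17-fold higher. The latter is uncertain, since its near-identical copy Hspa1a was listed at 0 in all 10 libraries and may share reads with it. Of 10 heat shock genes tested 3 were lower (30%, against 18.9% of all tested genes) and 1 was higher (10%, against 15.9%). Among 11 acute phase genes 3 were lower (27.3%) and 2 higher (18.2%), the latter the factors Cebpb and Cebpd. The median log2 difference of these acute phase genes was 0.24. Without replicate 5 of 1 day 4 were lower and 4 higher, with a median of 0.73. None was called higher without replicate 1 or 4 of 1 day, and 1 was without replicate 2 of 1 day or replicate 4 or 5 of 7 days. Fgb, the fibrinogen beta chain, had 35.8, 92.6, 92.4, 27.0 and 57.7 FPKM at 1 day and 10.9, 11.5, 7.60, 16.1 and 16.3 at 7 days. Hpx, the heme carrier hemopexin, was 7.99-fold lower, and its log2 difference of -3.00 ± 0.49 was -2.33 without replicate 2 of 1 day, the highest library at 40.9 FPKM. Lcn2, the kidney injury marker also called NGAL, was 222 ± 104 FPKM at 1 day and 283 ± 123 at 7 days (mean ± SD, n = 5; edgeR adjusted p = 0.613).

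Interferon response genes had the lowest median of the lists drawn, -1.05, and this value rested on 1 library. Their summed FPKM was 1666 in replicate 5 of 1 day, 356 to 499.5 in the other 4 libraries of that day and 278 to 667 at 7 days. Without replicate 5 of 1 day the median was 0.18, with 6 members lower and 4 higher. With it, 6 of 31 were lower (19.4%, against 18.9% of all tested genes) and 1 higher. Parp14, an interferon-induced mono-ADP-ribosyltransferase, was lower without overlap, with 48.2, 24.3, 34.9, 43.6 and 43.4 FPKM at 1 day and 14.4, 17.5, 6.91, 10.3 and 8.14 at 7 days. Rsad2, the antiviral enzyme viperin, had 18.7, 8.02, 13.2, 24.9 and 71.7 FPKM at 1 day and 2.36, 4.73, 2.16, 4.03 and 3.05 at 7 days, and its log2 difference of -3.15 ± 0.55 was -2.42 without replicate 5 of 1 day. That library also carried the urothelial and adipocyte markers described above.

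**Figure D4:**
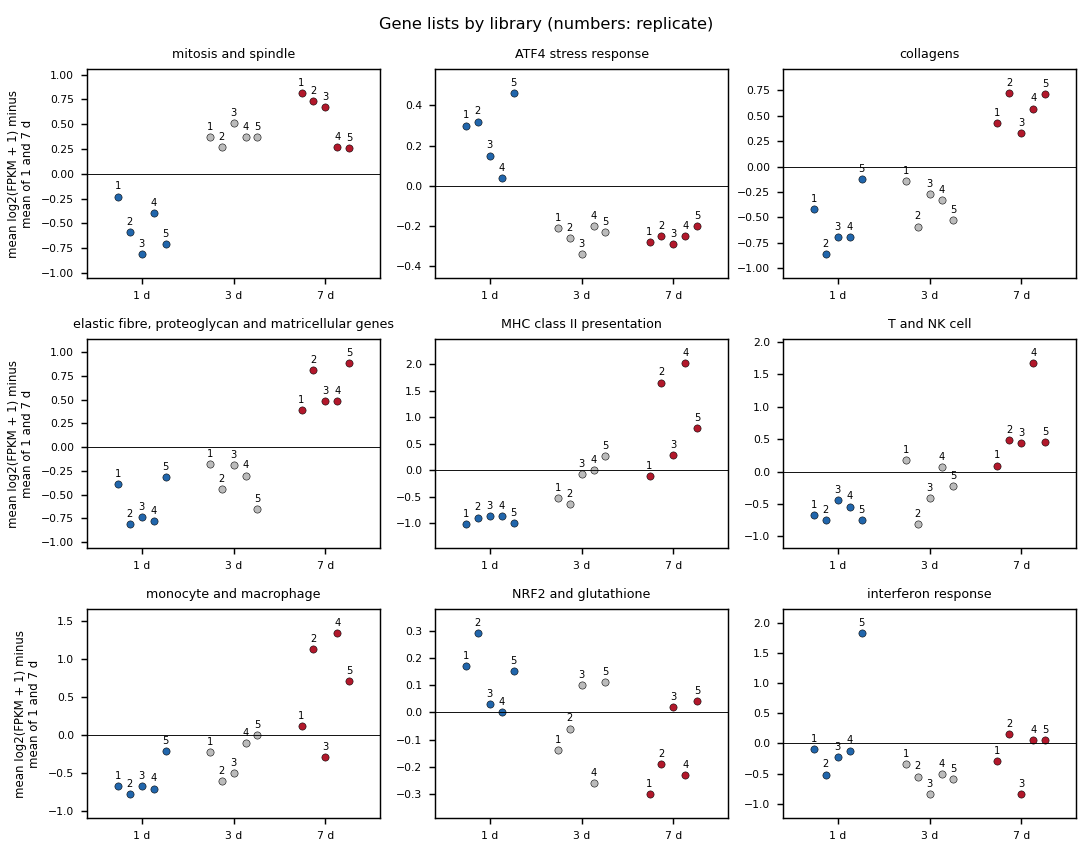
Mean log2(FPKM + 1) over the members of 9 gene lists in each library of 1, 3 and 7 days, set so that the mean of the 1-day and 7-day libraries is 0; numbers are replicates. Mitosis and matrix lists separate 1 day from 7 days in every library, the MHC class II list spreads widely at 7 days, and in the interferon panel replicate 5 of 1 day stands alone at 1.83.

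Markers of tubular injury did not move as one group. Of 22 genes 6 were higher (27.3%, against 15.9% of all tested genes) and 4 lower (18.2%, against 18.9%), with a median of 0.00. Without replicate 5 of 1 day 8 were higher and 4 lower, with a median of 0.42. Havcr1, the proximal tubule injury marker KIM-1, had 793, 857, 1040.2, 673 and 640.3 FPKM at 1 day and 505, 419.6, 258, 343 and 378 at 7 days (log2 difference -1.18 ± 0.19, edgeR adjusted p = 0.0014). Anxa2, a membrane-binding annexin, was 2.05-fold lower, and Sox11, a developmental transcription factor outside the list, had 51.0, 18.7, 42.5, 37.2 and 27.3 FPKM at 1 day and 5.86, 6.45, 6.10, 6.32 and 7.17 at 7 days. The 7-day libraries lay below all of 1 day for these 3 genes. In the other direction the intermediate filament Vim was 2.67-fold higher, the simple epithelial keratin Krt7 2.78-fold and the ciliary gene Dcdc2 3.13-fold, again with no overlap. Spp1, osteopontin, was the most abundant of these 4 at 5641 to 7992 FPKM at 1 day and 8675 to 12749.9 at 7 days (edgeR adjusted p = 0.014). In a fit on all 18 libraries the edgeR adjusted p of Havcr1 was 0.12 and that of Spp1 0.274. The log2 differences there were -1.16 and 0.64.

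The proximal tubule, the segment that reabsorbs most of the filtrate, gave a divided picture. Of 26 metabolic marker genes 8 were higher (30.8%, against 15.9% of all tested genes) and 2 lower (7.69%, against 18.9%), with a median of 0.87. Of 34 transport and endocytosis genes 6 were higher (17.6%) and 2 lower (5.88%), with a median of -0.01. The share of transport genes higher was thus close to that of all tested genes. Cyp4a2, a fatty acid hydroxylase from a family of close relatives, was 4.30-fold lower, with 3110.3, 3298, 2514, 2851 and 1896 FPKM at 1 day and 700.5, 941, 735, 516 and 532 at 7 days. Slc4a4, the basolateral sodium bicarbonate cotransporter, was 3.20-fold lower. Against these, Acsm5, a mitochondrial acyl-CoA synthetase, had 0.395, 1.09, 1.34, 0.252 and 0.378 FPKM at 1 day and 6.10, 4.11, 5.18, 2.19 and 4.59 at 7 days. Gatm, which makes the creatine precursor, had 152, 135, 109, 158 and 45.2 FPKM at 1 day and 404, 355, 638, 162 and 415 at 7 days, 3.09-fold higher. Cyp4a2 and Acsm5 separated the groups fully, and the adjusted p of Cyp4a2, 0.000198 by edgeR, was 0.0712 in a fit on all 18 libraries. Slc34a1, the phosphate cotransporter NaPi-IIa, had 145, 217, 76.3, 89.1 and 27.5 FPKM at 1 day and 292, 324, 822, 147 and 460.5 at 7 days with overlap. Lrp2, the endocytic receptor megalin, was 80.6 ± 23.2 FPKM at 1 day and 86.6 ± 36.3 at 7 days (mean ± SD, n = 5; edgeR adjusted p = 0.992).

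The increases of proximal tubule genes were fragile. The count of 6 transport genes fell to 1 without replicate 1, and to 2 and 1 without replicates 3 and 4, of 1 day, and to 3, 1 and 2 without replicates 2, 3 and 5 of 7 days. The call of Slc34a1 (edgeR adjusted p = 0.032) was lost without replicate 1, 3 or 4 of 1 day or replicate 3 or 5 of 7 days, with adjusted p from 0.0502 to 0.0803, and was 0.162 in a fit on all 18 libraries. The count of 2 genes lower in each list became 4 for transport and 5 for metabolism without replicate 5 of 1 day. The transport median was then -0.13. The count of 8 metabolic genes fell to 5 without replicate 3 or 4 of 1 day or replicate 3 or 5 of 7 days.

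Further down the nephron few markers differed. In the loop of Henle and distal tubule list 3 of 23 genes were lower (13%, against 18.9% of all tested genes) and 2 higher (8.7%, against 15.9%). The number higher was 0 without replicate 3 of either day. It was 1 without replicate 1 or 4 of either day or replicate 5 of 7 days. Umod, uromodulin, was 54.9 ± 23.1 FPKM at 1 day and 113 ± 63.9 at 7 days (mean ± SD, n = 5) and was not called (edgeR adjusted p = 0.106). Of 22 collecting duct genes 2 were lower (9.09%, against 18.9% of all tested genes) and 1 higher (4.55%, against 15.9%). With 1 library left out in turn, the number lower ran from 0 to 4 and the number higher from 1 to 3. The collecting duct water channel Aqp2 was at 40.9, 51.1, 24.8, 34.7 and 370.5 FPKM at 1 day and 30.4, 20.4, 18.5, 48.4 and 19.5 at 7 days, and its uncalled log2 difference of -2.01 ± 0.72 was -0.59 without replicate 5 of 1 day. It was called on leaving out replicate 3 or 4 of 1 day (edgeR adjusted p = 0.0358 and 0.0442). Fxyd4, a collecting duct regulator of the sodium pump, shared that high library, at 102 FPKM against 2.21 to 5.48 at 7 days. Its edgeR adjusted p of 0.0484 became 0.22 without it and 0.0537 to 0.096 without replicate 1 of 1 day or any 1 replicate of 7 days. In the podocyte list of 14 genes 3 were higher (21.4%, against 15.9% of all tested genes) and 2 lower (14.3%, against 18.9%). The transcription factor Tcf21 was 2.80-fold higher and the slit diaphragm adaptor Cd2ap 2.68-fold lower. Nphs1, nephrin, was 9.56 ± 3.04 FPKM at 1 day and 10.3 ± 3.79 at 7 days (mean ± SD, n = 5). Which cells carried these RNAs was not tested.

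Fatty acid oxidation is the main fuel pathway of the proximal tubule. Of its 38 tested genes 15 were lower (39.5%, against 18.9% of all tested genes) and 2 higher (5.26%, against 15.9%). The median was -0.29. The number higher was 1 without replicate 1, 2, 3 or 4 of 1 day or replicate 3 or 5 of 7 days. The count lower was 9 with upper-quartile factors or on the FPKM scales. Eci1, a mitochondrial enoyl-CoA isomerase, had 149.5, 168, 108, 117 and 96.2 FPKM at 1 day and 49.7, 50.4, 61.2, 61.8 and 63.5 at 7 days (log2 difference -1.26 ± 0.17, edgeR adjusted p = 0.000653). Ppara, the nuclear receptor that drives the pathway, had 2.87, 2.53, 2.88, 2.76 and 2.85 FPKM at 1 day and 1.10, 1.64, 1.61, 1.05 and 1.12 at 7 days. Both were free of overlap. Cpt1a, the gate of fatty acid import into mitochondria, was 1.73-fold lower and the dehydrogenase Acadl 1.64-fold, the latter with an adjusted p of 0.158 in a fit on all 18 libraries, where 3 members were lower. The fatty acid binding protein Fabp3 was 3.12-fold higher. The lactate dehydrogenase genes went opposite ways, with Ldha 1.51-fold lower and Ldhb 2.03-fold higher, with 123 to 205 FPKM at 1 day and 321 to 398 at 7 days. Of 24 genes of cholesterol synthesis 6 were lower (25%, against 18.9% of all tested genes) and 0 higher (0%, against 15.9%). Sc5d, a sterol desaturase, was 2.02-fold lower.

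Of 43 nuclear genes of oxidative phosphorylation 6 were higher (14%, against 15.9% of all tested genes) and 0 lower (0%, against 18.9%). The share higher was thus close to that of all tested genes, and the median was 0.16. The number higher reached 14 without replicate 2 of 1 day. It fell to 1 without replicate 3 or 4 of 1 day or replicate 3 of 7 days. It was 3 without replicate 1 of either day, 2 without replicate 4 or 5 of 7 days, and 18 on the log2(FPKM + 1) scale. In edgeR's fit on all 18 libraries 0 were called and 0 had an unadjusted p under 0.05. Without replicate 5 of 1 day 3 were called lower, and the median was 0.08. Lysosomal cathepsins were reordered, with 5 of 11 higher (45.5%, against 15.9% of all tested genes) and 3 lower (27.3%, against 18.9%). Ctsl, the most abundant at 1 day, had 3560.5, 4353, 3322, 3568 and 2534 FPKM at 1 day and 1474, 1275, 1402, 1407 and 1550.3 at 7 days, and Ctsb was 1.91-fold lower. Ctsk, a collagen-cleaving cathepsin, was 3.55-fold higher and Ctsh 1.81-fold. The groups did not overlap for any of these 4.

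Signalling genes of the epithelium also differed singly. Hbegf, a ligand of the EGF receptor, had 7.34, 5.26, 6.77, 6.88 and 10.4 FPKM at 1 day and 27.2, 16.7, 18.3, 17.8 and 27.5 at 7 days. Egfr itself was 2.82-fold lower and Erbb3 1.71-fold. Of 10 genes of this family 1 was higher (10%, against 15.9% of all tested genes) and 2 were lower (20%, against 18.9%). The share lower was close to that of all tested genes, and the number higher was 2 without replicate 4 of 7 days. Of the prostaglandin E receptors, Ptger2 was 3.49-fold higher, with 0.243 to 1.30 FPKM at 1 day and 1.94 to 3.58 at 7 days, and Ptger3, the EP3 receptor of the thick ascending limb, 2.37-fold lower, with 96.2 to 142 and 37.3 to 63.1. Their list of prostaglandin genes had 5 of 15 higher (33.3%, against 15.9% of all tested genes) and 1 lower (6.67%, against 18.9%). Without replicate 5 of 1 day 9 were higher and 2 lower. Of 24 immediate early genes 7 were higher (29.2%, against 15.9% of all tested genes) and 5 lower (20.8%, against 18.9%). The number higher was 4 without replicate 4 of 1 day or replicate 5 of 7 days. The number lower was 3 without replicate 1 or 3 of 1 day or replicate 2 or 5 of 7 days. Egr2 was 5.15-fold higher and the phosphatase Dusp1 1.83-fold, and Klf4 was 2.15-fold lower. None of these 8 genes overlapped between the groups. Fosl2, an AP-1 subunit, was 2.40-fold lower, with 33.8, 14.0, 32.3, 30.9 and 32.9 FPKM at 1 day and 15.6, 12.3, 10.2, 14.5 and 11.6 at 7 days, where replicate 2 of 1 day fell among the 7-day values.

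The 5 libraries of 3 days place these differences in time as a description, with no test. On the mean log2(FPKM + 1) scale, the median called gene had covered 43.5% of the way from its 1-day to its 7-day level by 3 days where it was higher at 7 days, and 56.1% where it was lower. The called mitosis genes stood at 84.7% and those of the ATF4 list at 82.6%. Plk1 had 5.08, 3.56, 6.07, 4.72 and 5.81 FPKM at 3 days, above every 1-day library, and Trib3 had 1.37, 2.02, 1.07, 1.75 and 1.13, below every 1-day library. The called collagens stood at 15.0%: Col1a1 had 31.7, 18.2, 31.4, 25.9 and 23.5 FPKM at 3 days, so that replicates 1, 3 and 4 lay above the highest 1-day library and all 5 below the lowest 7-day library. Elastic fibre and matricellular genes stood at 23.6%, T and NK cell genes at 31.9%, macrophage genes at 36.8% and MHC class II genes at 40.7%.

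A few groups did not lie between. Of the 15 fatty acid oxidation genes called lower, 9 were higher at 3 days than at 1 day and the median position was -24.6%. The called proximal tubule metabolism genes that were higher at 7 days stood at 108.6%, with 6 of 8 past their 7-day level at 3 days. Acsm5 had 7.59, 4.85, 5.14, 4.24 and 3.73 FPKM at 3 days and Gatm 337, 431, 991, 412 and 119. Il24 had 6.80, 10.3, 6.10, 7.78 and 3.33 FPKM at 3 days, overlapping its 1-day values and below every 7-day library.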

How the data were processed

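Poly(A) RNA of rat renal parenchyma was sequenced, and the authors deposited 1 table with a read count and an FPKM value per gene and library. Reads were handled with fastp 0.19.7 and HISAT2 2.0.4, per the submitters' processing notes; the sources used here do not give the genome build, the counting tool or its strand setting. The deposited FPKM values are proportional to the deposited counts over a fixed length per gene (largest ratio of implied lengths 1.00002 over 9512 genes). They scale each library to its own total, so a few abundant genes can shift all others.

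Counts of the 10 libraries were filtered with filterByExpr (minimum count 10, minimum total 15) and tested with edgeR 4.0.16 in R 4.3.3 (TMM factors, quasi-likelihood test, Benjamini-Hochberg adjustment, adjusted p under 0.05). Levels are printed as deposited FPKM; fold changes, standard errors and p-values come from the counts, and overlap between groups was judged on the printed FPKM for single genes and on TMM-scaled CPM for counts of genes. DESeq2 1.42.0, limma 3.58.1, other factors and filters, all 18 or 15 libraries, a replicate block and leaving out each library were tried as alternatives. The edgeR test was also run on simulated counts. There a small part of the genes changed, equally often up and down, so that check does not bear on the scaling when many genes differ. Total counts of 5488540 to 10954852 per library limit the precision of low genes. Samples were grouped by the labels' duration of obstruction.

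The comparison and 56 gene lists were chosen with earlier results of these data known. Of 1163 listed symbols 1110 matched the table directly, 22 through a RefSeq synonym and 31 were not found. Genes were named by rule: the 12 with the largest fold change per direction among called genes without overlap above a minimum FPKM, the leading called members of each list, and a set of injury, matrix, leukocyte and nephron genes, called or not. Cdk1, Top2a, Cdc20, Prc1, RT1-DOb, RT1-DMa, Cd74, Slc7a1, Runx1 and Csf3r were named after their values were seen. Promoter sequences are from RefSeq (GRCr8). Chromosome positions in the deposited table name no build and were not used.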

Additional observations from a re-analysis of the deposited data

Results flagged for a closer look

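Libraries of 1 day and of 7 days were examined as groups of 5, 286 groups in all. They covered each gene named with its level or fold and the summed FPKM of 8 gene lists. The gap between the most extreme library and its nearest neighbour was compared with Dixon's limit, and 29 exceeded it. By chance about 1 group in 20 does. Replicate 5 of 1 day accounted for 16 of them. It was highest for the summed FPKM of urothelial markers (404.6 against 14.99 in the next library), of adipocyte markers (283.8 against 33.73), of mesothelial markers (129.5 against 36.11), of neutrophil markers (53.21 against 17.75) and of interferon response genes (1666 against 499.5). It was also highest for Aqp2 (370.5 FPKM, next 51.08), Fxyd4 (101.9, next 8.222), Rsad2 (71.7, next 24.95), Krt7 (71.29, next 43.07), Cpt1a (86.4, next 54.18), C1qa (52.17, next 33.01), Tcf21 (29.08, next 19.5), Cd68 (28.72, next 17.07), Egfr (19.04, next 8.28) and Fcer2 (16.2, next 7.413), and lowest for Osgin1 (6.076, next 9.32). In 3 further cases at 1 day, replicate 1 was highest for Bub1 (1.352, next 0.9779), and replicate 2 was highest for Hpx (40.91, next 13.03) and lowest for Fosl2 (14.01, next 30.86).

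At 7 days replicate 4 stood out in 6 cases. It was highest for the T cell genes Cxcr3 (21.99 FPKM, next 7.756) and Cd3e (12.99, next 4.899), for the chemokine Cxcl9 (66.17, next 17.78), for Umod (223.9, next 105.8) and for summed neutrophil markers (96.27, next 24.53), and lowest for Cyr61 (119.3, next 186.2). Replicate 5 was highest for Egr2 (17.62, next 10.63) and Hspa1b (14.22, next 7.721), replicate 2 for Fbln5 (125.2, next 68.93) and replicate 3 for Fam111a (61.98, next 5.385). The 7-day and 1-day libraries of these genes did not overlap, apart from Umod.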

How the results depend on the processing

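The number of called genes, 4772, ran from 3608 (all 18 libraries) to 6202 (voom with sample weights) under other fits, apart from the block and the test of size given below, and from 3771 (without replicate 5 of 7 days) to 5684 (without replicate 5 of 1 day) when libraries were left out in turn. It was 5253 with DESeq2, 4736 with RLE factors, 4745 with upper-quartile factors, 4591 with no filter on low counts, 3998 with a stricter one, 4793 and 4805 with limma on log2 FPKM (pseudocounts 1 and 0.1), and 5147 without replicate 5 of 1 day and replicate 4 of 7 days together, a setting chosen with earlier results known. No called gene was called in the opposite direction in any of these. A test against a log2 difference of 1 called 181 genes, 135 higher and 46 lower. No pairing by replicate number was visible, though this check cannot exclude one. Deviations of same-numbered libraries correlated between -0.233 and 0.157 over 5 pairs, and not every library correlated best with its own number. The fit with the replicate block called 3564 genes (1709 higher, 1855 lower). It called 11 complement genes higher, 8 fatty acid oxidation genes lower and 0 nuclear oxidative phosphorylation genes (6 with an unadjusted p under 0.05).

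Of 135 genes named with their levels or folds, 128 were called. Genes named without them are outside this count, such as Runx1, whose call was lost in several fits. In all 24 alternatives other than the test against a log2 difference of 1, 113 kept their call and direction, and 15 lost it in at least 1. Cyp4a2, Havcr1, Plau, Acadl, Slc7a1 and Cd68 lost it in the fit on all 18 libraries alone. With the block, calls were lost for Osgin1 (adjusted p = 0.0538), Spp1 (0.0641), Cpt1a (0.0666), Fam111a (0.0519), Slc34a1 (0.0762) and Fxyd4 (0.175), and RT1-DOb lost its call with voom (0.0605). Fxyd4 was also not called with upper-quartile factors (0.0523) or on FPKM (0.256, 0.242). Of the uncalled genes, Aqp2 was called with the 15 libraries of 1, 3 and 7 days (0.0263) and without both doubted libraries (0.0144), and Lcn2 in the latter setting (0.0425). The direction changed in uncalled genes alone. The log2 difference of Nphs1 was 0.01 with RLE factors, DESeq2 or mitochondrial genes left out, 0.06 with upper-quartile factors, 0.04 with the stricter filter, 0.08 and 0.09 on FPKM and 0.02 with all 18 libraries. That of Fn1 was 0.03 with upper-quartile factors and on FPKM and 0.12 without both libraries. That of Lrp2 was -0.01 with no filter, -0.03 with the block and -0.18 with voom. With 1 library left out in turn the values ran from -0.19 to 0.17 for Nphs1, from -0.18 to 0.05 for Fn1, from -0.26 to 0.19 for Lrp2 and from -0.27 to 0.11 for Ccl2. Causes were not tested. Genes under the count filter, 17259 of 30957, could not be tested at this depth.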

Other observations

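Several small groups of genes outside the main accounts also differed between 7 days and 1 day. Tph1, the rate-limiting enzyme of peripheral serotonin synthesis, had 3.33, 2.98, 3.40, 6.31 and 1.93 FPKM at 1 day and 0.689, 0.448, 0.429, 0.192 and 0.217 at 7 days, 9.51-fold lower (edgeR adjusted p = 0.000414), and Maoa, which degrades serotonin, was 1.74-fold lower. Neither gene overlapped between the groups. In their list of tryptophan, kynurenine and NAD genes 4 of 20 were higher (20%, against 15.9% of all tested genes) and 3 lower (15%, against 18.9%). The number higher fell to between 0 and 2 without replicate 1, 3, 4 or 5 of 1 day. The same held without replicate 3 or 5 of 7 days. Asl, a urea cycle enzyme that the kidney uses to make arginine, had 95.8, 132, 95.4, 106 and 79.2 FPKM at 1 day and 56.4, 49.9, 44.5, 48.8 and 61.0 at 7 days, and at 3 days it had 41.4, 63.3, 53.7, 55.1 and 41.2, so that both later times lay below every 1-day library.

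Of 18 genes that respond to p53, 6 were lower (33.3%, against 18.9% of all tested genes) and 3 higher (16.7%, against 15.9%). Without replicate 5 of 1 day 5 were higher. Ccng1, a cyclin induced by p53, was 1.67-fold lower, with 41.9, 41.4, 44.8, 47.0 and 33.9 FPKM at 1 day and 27.6, 28.2, 26.1, 26.7 and 25.9 at 7 days. Phlda3, which restrains AKT signalling, was 2.12-fold higher, with 12.4 to 19.4 FPKM at 1 day and 25.5 to 40.8 at 7 days. Both genes were without overlap. Figf, the lymphatic growth factor also called Vegfd, had 2.96, 2.79, 3.45, 2.48 and 3.45 FPKM at 1 day and 6.70, 12.1, 6.11, 11.5 and 9.05 at 7 days (log2 difference 1.47 ± 0.20, edgeR adjusted p = 0.000667). Among 9 lymphatic endothelial genes 5 were higher, a count of 3 without replicate 2 or 3 of 1 day or replicate 2 of 7 days and of 2 without replicate 5 of 7 days. Among 19 blood endothelial genes 3 were higher (15.8%, against 15.9% of all tested genes), and 11 were higher without replicate 5 of 1 day.

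Of the 3 libraries labelled 14 days, replicate 2 stood apart from replicates 1 and 3 in some genes, while in others all 3 were alike. The summed FPKM of the urothelium list was 939.6, 9.79 and 941 in replicates 1 to 3, and Aqp2 was at 694, 43.8 and 777 FPKM. The summed FPKM of the mitosis list was 16.7, 23.1 and 18.1, and that of the MHC class II list 79.5, 122.6 and 127.5. Cyp4a2 was at 66.2, 2759 and 27.4 FPKM, Col1a1 at 10.9, 1.83 and 26.1, and Havcr1 at 1.52, 7.45 and 0.317.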
